A study of Mus musculus with 20 samples.

Results

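Gene expression was compared between MIN6 cells given 20 µM human amylin and MIN6 cells given 1 µM, both grown at 22.7 mM glucose. The 20 µM group holds 3 arrays, at 2, 12 and 24 h, and the 1 µM group holds 3 arrays at the same times. These 6 arrays were chosen by their labels from the 20 of the series, and each 20 µM array was set against the 1 µM array of its time. MIN6 is a mouse insulinoma line used as a model of the pancreatic beta cell, and the cells of all 6 arrays were kept at 37 °C in 5% CO2. The other arrays used here, only beside a result, were 3 at 10 µM amylin and 1 from untreated cells at 22.7 mM glucose, and 3 at 20 µM and 3 at 1 µM amylin at 5.5 mM glucose. Every condition was arrayed 1 time, so the error below is the spread of the 3 matched differences, which also holds any change of the dose effect with time. The labels do not say whether the cultures were separate, so that spread may in part be technical. Values are log2 signals of Affymetrix arrays, on which a difference of 1 is a 2-fold change.

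Amylin is a small peptide hormone that beta cells store and release together with insulin. The human form, unlike the mouse form, readily assembles into oligomers and fibrils, and amyloid made of it is found in the islets of many people with type 2 diabetes. Cells handling misfolded protein in the endoplasmic reticulum (ER) raise ER chaperones and degradation factors through the unfolded protein response, while the integrated stress response raises the transcription factor Atf4 and its targets in amino acid metabolism and cell death.

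The promoters of 4 ER genes described below are shown first, because these genes share a response motif and had differences of either sign. They are 300 bases each from RefSeq (GRCm38.p6), 250 bases before to 50 after the annotated start, written 5′ to 3′ along the gene's strand. Capitals mark each match on either strand to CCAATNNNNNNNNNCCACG, the ER stress response element of the unfolded protein response, which 0.119% of the 32841 promoters in the table and 0.25% of the 4801 promoters of tested genes hold. Creld2 lies at chr15:88819396-88819695 (plus strand), Derl3 at chr10:75893148-75893447 (plus strand), Hspa5 at chr2:34771840-34772139 (plus strand) and Hsp90b1 at chr10:86705395-86705694 (minus strand).
Creld2: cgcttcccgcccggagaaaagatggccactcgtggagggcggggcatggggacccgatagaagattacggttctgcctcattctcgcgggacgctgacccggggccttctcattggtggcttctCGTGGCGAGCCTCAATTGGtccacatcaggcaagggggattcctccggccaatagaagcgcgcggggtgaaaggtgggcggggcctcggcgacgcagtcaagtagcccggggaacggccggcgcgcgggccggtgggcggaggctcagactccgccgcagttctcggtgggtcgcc
Derl3: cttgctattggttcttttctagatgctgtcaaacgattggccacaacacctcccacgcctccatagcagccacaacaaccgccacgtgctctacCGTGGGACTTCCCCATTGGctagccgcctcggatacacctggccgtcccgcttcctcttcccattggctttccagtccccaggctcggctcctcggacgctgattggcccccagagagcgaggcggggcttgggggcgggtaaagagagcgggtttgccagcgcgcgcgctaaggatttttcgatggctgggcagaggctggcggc
Hspa5: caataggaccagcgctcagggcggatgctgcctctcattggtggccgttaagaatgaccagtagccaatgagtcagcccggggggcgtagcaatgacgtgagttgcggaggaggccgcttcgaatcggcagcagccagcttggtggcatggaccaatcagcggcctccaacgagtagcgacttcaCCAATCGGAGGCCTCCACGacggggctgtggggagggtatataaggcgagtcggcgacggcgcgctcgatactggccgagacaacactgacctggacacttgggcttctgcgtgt
Hsp90b1: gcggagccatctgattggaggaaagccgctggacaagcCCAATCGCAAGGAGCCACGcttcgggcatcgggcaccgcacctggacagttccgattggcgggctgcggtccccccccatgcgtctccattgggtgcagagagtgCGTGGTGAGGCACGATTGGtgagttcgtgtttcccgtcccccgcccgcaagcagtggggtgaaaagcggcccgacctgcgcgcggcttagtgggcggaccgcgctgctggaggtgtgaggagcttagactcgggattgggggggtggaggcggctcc

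The cells carried the defining transcripts of their label. Of 10 beta cell markers, 8 were measured and all 8 were above the filter on low signals, and Ins2, an insulin gene, was at 14.61 to 14.67 in the 20 µM arrays and 14.50 to 14.65 in the 1 µM arrays. The summed level of the 8 markers (log2 of the sum of the linear signals) was 15.71 to 15.79 in 20 µM arrays and 15.60 to 15.62 in 1 µM arrays. Markers of acinar, fibroblast, immune and endothelial cells were mostly below the filter, with 3 of 12 acinar, 4 of 14 fibroblast, and 3 of 15 immune and endothelial genes above it. Of the duct markers 4 of 8 were above it, among them the keratin genes Krt7 and Krt8, and of the other islet hormone markers 4 of 8, among them Gcg. The summed duct level was 11.93 to 12.15 in 20 µM arrays and 11.89 to 12.08 in 1 µM arrays, and that of the other islet hormones was 11.32 to 11.77 in 20 µM arrays and 11.35 to 11.78 in 1 µM arrays. The summed acinar level was 10.32 to 10.50 in 20 µM arrays and 10.29 to 10.80 in 1 µM arrays, and the fibroblast level was 10.44 to 10.62 in 20 µM arrays and 10.52 to 10.94 in 1 µM arrays. In the acinar and fibroblast lists the highest value was that of the 1 µM, 12 h array. The acinar marker gene Cela3b, above the filter, was at 7.68 to 7.99 in 20 µM arrays and 7.56 to 8.31 in 1 µM arrays. Genes below with values in this range or under it lie low on the arrays, near the filter cut of 7.08.

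Features of the arrays bear on every comparison below. The 1 µM, 12 h array stood apart, with a median signal of 7.25 against 7.06 to 7.12 in the other 8 treated arrays at 22.7 mM, and a mean correlation with the other treated arrays of 0.973 against 0.988 to 0.991. No scanner description was used for it. The 20 µM arrays were scanned on days coded 2, 4 and 4, and the 1 µM arrays of 2 and 24 h on day 3, so scan day and dose cannot be told apart in the matched comparison. The actin 3′ minus 5′ signal, which is larger in poorer RNA, was 1.61, 1.72 and 1.36 in the 20 µM arrays and 1.90, 1.66 and 1.96 in the 1 µM arrays at 2, 12 and 24 h. For Gapdh it was 1.25, 1.21 and 1.05 with 20 µM and 1.38, 1.56 and 1.46 with 1 µM, so every 1 µM array lay above every 20 µM array. The 18S ribosomal RNA control was at 8.11, 10.28 and 10.48 with 20 µM and at 10.80, 8.41 and 9.09 with 1 µM. The part of these signals in the results was not tested.

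No gene passed the test between 20 and 1 µM amylin at 22.7 mM glucose. Of 7436 genes tested with limma, 0 (percent called 0) had an adjusted p under 0.05, and the smallest adjusted p was 0.985. At an unadjusted p under 0.05 there were 232 genes (3.12%), of which 141 (1.9%) were higher and 91 (1.22%) lower at 20 µM. That is below the 371.8 genes that the threshold alone would give. The median standard error was 0.15, so the values below are descriptions of genes that did not pass. The sign was the same at all 3 times for 898 genes higher (12.1%) and 904 genes lower (12.2%) at 20 µM. The 20 µM arrays lay above all 1 µM arrays for 352 genes (4.73%) and below all of them for 284 (3.82%).

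The differences were widest at 12 h. Their standard deviation over the tested genes was 0.24 at 2 h, 0.43 at 12 h and 0.21 at 24 h. At 2 h, 1 gene was over 1 (0.0134%) and 5 were under −1 (0.0672%). At 12 h the counts were 195 (2.62%) and 24 (0.323%), and at 24 h they were 2 (0.0269%) and 2 (0.0269%). The 12 h differences moved with signal strength: their median was −0.14 in the lowest of 4 equal bins of mean level, then 0.05, 0.18 and 0.22 in the bins above it. At 2 and 24 h the bins differed by less, as the plot of spread by time shows. Across genes, the differences at 2 and 12 h correlated at −0.16, those at 2 and 24 h at 0.06, and those at 12 and 24 h at 0.09. Genes are not independent replicates, and these 3 values only describe how little the times shared.

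**Figure D1:**
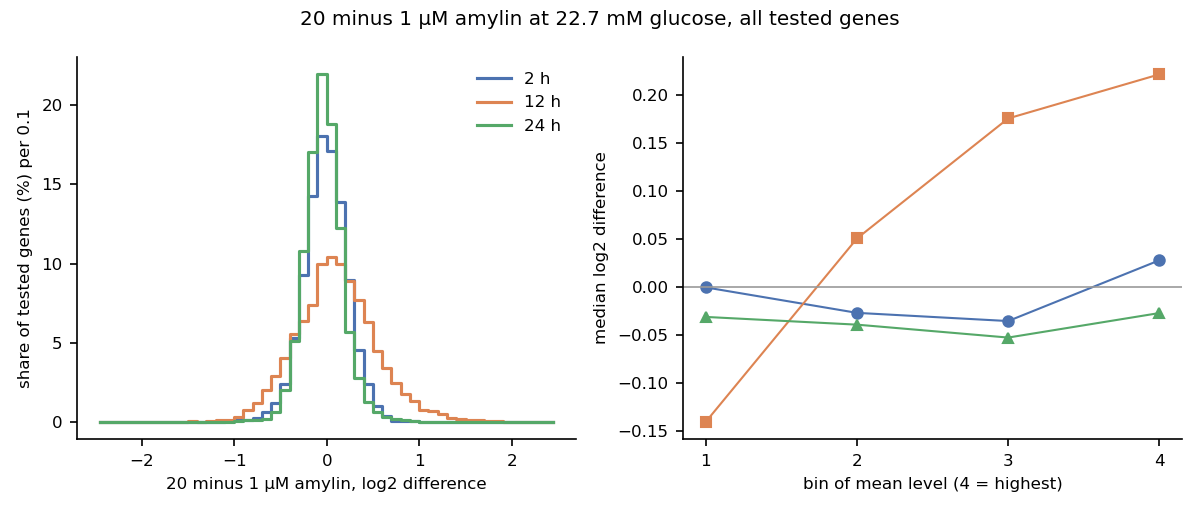
Left, share of the 7436 tested genes (%) per 0.1 of the log2 difference 20 minus 1 µM amylin at 22.7 mM glucose, at 2, 12 and 24 h. Right, median difference in each of 4 bins of mean level, where the 12 h line climbs across the bins to 0.22 and the others stay between −0.05 and 0.03.

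The clearest single gene was Id1, at lower signal with 20 µM amylin. The Id proteins are helix-loop-helix factors without a DNA-binding region that hold back basic helix-loop-helix transcription factors, and their genes are targets of bone morphogenetic protein (BMP) signalling. Id1 (chromosome 2) was at 8.91, 8.34 and 7.85 in the 20 µM arrays of 2, 12 and 24 h, against 9.56, 9.78 and 9.18 in the 1 µM arrays and 9.93 in untreated cells. Every 20 µM array lay below every 1 µM array, and all 6 lay below the untreated array. The group means were 8.37 ± 0.53 at 20 µM and 9.51 ± 0.31 at 1 µM (SD, n = 3 times each). The difference was −1.14 (SE 0.18, 95% interval −1.56 to −0.71), a signal 2.20-fold lower, with a limma adjusted p of 0.985. Id1 had the smallest p of the 7436 genes. In RNA from whole cultures, fewer cells expressing a gene and less RNA per cell cannot be told apart.

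Id1 held its direction when the arrays in doubt were left out. Its difference was −1.38 without the 2 h pair and −0.98 without the 12 h pair (limma adjusted p = 0.213 and 0.481). In a fit over the 9 treated arrays at 22.7 mM with terms for dose and time, it was −0.94 without the 1 µM, 12 h array and −1.33 without the 1 µM, 2 h array. Without both it was −1.12, with a limma adjusted p of 0.0178, which passes. Over the 25 alternatives tried, Id1 lay between −1.38 and −0.94, with limma adjusted p-values from 0.0178 to 0.998, and 1 of them passed. In the fit without both arrays the 1 µM level rests on the 24 h array alone. The 10 µM arrays were at 8.98, 8.43 and 8.55. Within scan day 3, the 10 µM array of 2 h was lower than its 1 µM partner by −0.58. Within scan day 4, 20 minus 10 µM was −0.09 at 12 h and −0.69 at 24 h. A fit with a scan day term gave −0.97 (limma adjusted p = 0.208). That fit, here and below, takes its 1 µM level from the 2 h array alone, through 10 minus 1 µM at 2 h. To this it adds the mean of 20 minus 10 µM at 12 and 24 h, so for Id1 it restates the values above.

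Id2 and Id3, of the same family, were also lower at all 3 times. Id2 was at 9.98, 9.41 and 9.26 with 20 µM and at 10.65, 10.01 and 9.65 with 1 µM amylin, and the groups overlapped, as both declined over the hours. Its difference was −0.56 (SE 0.14), and its 2 weaker probe sets gave −0.35 and −0.16. Id3 was at 8.49, 7.98 and 7.56 with 20 µM and at 8.94, 8.32 and 8.46 with 1 µM, against 9.35 in untreated cells. Here too the groups overlapped, and the difference was −0.57 (SE 0.15). None passed, with a limma adjusted p of 0.985 for each.

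The wider list of Id genes and TGF-beta and BMP targets had 9 tested members, of which 0 passed. At all 3 times 4 were lower and 0 higher, against 12.2% and 12.1% of all tested genes. The median difference of the list was −0.15, against 0.01 over all tested genes. The inhibitory Smad gene Smad7 was at −0.18, Id4 at −0.15, the Notch and BMP target Hey1 at −0.14 and the Smad corepressor gene Skil at −0.08. Bambi, which encodes a decoy receptor of the pathway, was the member above 0, at 0.36. The lowest values of this list were thus those of Id1, Id2 and Id3.

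**Figure D2:**
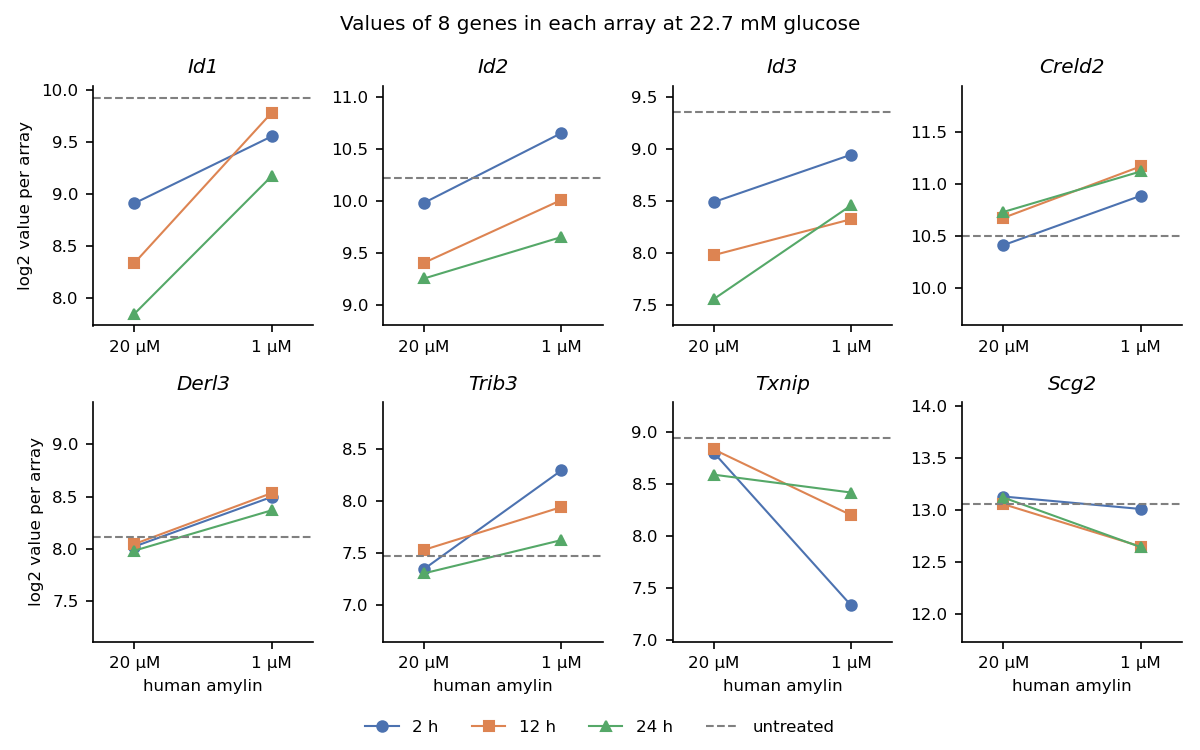
Log2 value of 8 genes in the 3 arrays at 20 µM and the 3 at 1 µM human amylin at 22.7 mM glucose, with lines joining arrays of the same time and a dashed line at the untreated array. Id1 lies at 7.85 to 8.91 with 20 µM and at 9.18 to 9.78 with 1 µM, and each panel spans its own range of values.

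Creld2 and Derl3, both ER genes with the motif shown above, were lower at 20 µM by nearly the same amount at each time. Creld2 encodes an ER-resident protein induced by ER stress, and Derl3 a derlin of ER-associated degradation. Creld2 was at 10.42, 10.68 and 10.73 in the 20 µM arrays and at 10.89, 11.17 and 11.12 in the 1 µM arrays. Derl3 was at 8.02, 8.04 and 7.98 with 20 µM and at 8.50, 8.53 and 8.37 with 1 µM. For both genes the groups did not overlap. The 1 µM arrays lay above the untreated values of 10.50 and 8.12, and the Derl3 values at 20 µM lay below its untreated value. The difference for Creld2 was −0.45 (SE 0.13), from −0.47, −0.49 and −0.39 at 2, 12 and 24 h. For Derl3 it was also −0.45 (SE 0.13), from −0.48, −0.49 and −0.39. Neither passed (limma adjusted p = 0.985 for each).

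The major ER chaperones did not share this direction. Hspa5, which encodes the chaperone BiP, was at 12.20, 11.62 and 12.05 in the 20 µM arrays and at 11.81, 11.57 and 12.01 in the 1 µM arrays, a difference of 0.16 (SE 0.12) between groups that overlapped. Hsp90b1, which encodes the chaperone Grp94, was at 10.29, 10.49 and 10.47 with 20 µM and at 10.27, 9.48 and 10.21 with 1 µM. Its difference of 0.43 (SE 0.20) rested on the 1 µM, 12 h array, and it was 0.14 without the 12 h pair. Sdf2l1, an ER chaperone cofactor, was at −0.27 (SE 0.13), with all 20 µM arrays below all 1 µM arrays.

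Of the 24 tested ER chaperone and folding genes, 0 passed, and 4 were higher and 3 lower at all 3 times. These shares of 16.7% and 12.5% were near the 12.1% and 12.2% of all tested genes. The median was 0.03. After quantile normalization the median was −0.05, so its sign depends on the scaling. ER-associated degradation genes and sensors of the unfolded protein response (25 tested) had a median of 0.10, which was 0.01 without the 12 h pair. The motif was found in the promoters of 8 of 19 ER chaperone genes and 2 of 20 degradation genes that had a promoter in the table. In all, 12 tested genes held it, among 4801 tested genes with a promoter. Their differences were positive for 8 and negative for 4, with a median of 0.05, where 53.6% of all tested genes were positive. Besides Creld2 and Derl3, the protein disulfide isomerase gene Pdia6 was at −0.24 and the lectin chaperone genes Calr and Canx were at −0.07 and 0.18. In Creld2 the match began 126 bases before the start, in Derl3 156, in Hspa5 65 and in Hsp90b1 212 and 107. A match in a window is a description of its letters, and none of these positions was tested for binding.

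**Figure D3:**
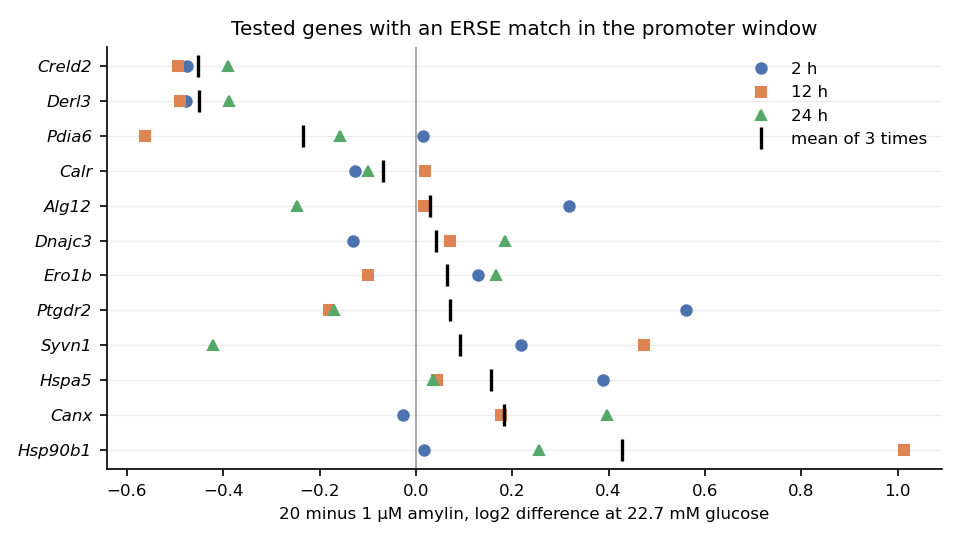
Log2 difference 20 minus 1 µM amylin at 22.7 mM glucose for the 12 tested genes with an ER stress response element in the promoter window, at 2, 12 and 24 h (symbols) and as the mean of the 3 times (bar). Creld2 and Derl3 lie below 0 at all 3 times, at means of −0.45, while Hsp90b1 has its mean of 0.43 from the 12 h value of 1.01.

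Genes of the integrated stress response were lower at 20 µM at 2 and 24 h. Of 24 tested members, 0 passed, and 20 had a negative and 4 a positive mean difference, against 3447 and 3989 of all 7436 genes. Lower at both 2 and 24 h were 18, against 2331 of all 7436 genes. The median was −0.21, from −0.54 at 2 h, 0.15 at 12 h and −0.25 at 24 h, where the medians of all tested genes were −0.01, 0.09 and −0.04. This size rests on the 1 µM, 2 h array: without the 2 h pair the median was −0.01, and without the 12 h pair it was −0.38. The median deviation of the members from their means was −0.13, 0.00 and −0.25 in the 20 µM arrays and 0.52, −0.16 and 0.01 in the 1 µM arrays at 2, 12 and 24 h, and 0.04 in the untreated array. So the 1 µM, 2 h array was the one far above the others. The same list was lower by −0.44 at 2 h in 10 minus 1 µM, which uses that same 1 µM array.

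Trib3, which encodes a pseudokinase induced by Atf4, was lower at all 3 times. It was at 7.35, 7.53 and 7.31 in the 20 µM arrays, against 8.30, 7.94 and 7.63 in the 1 µM arrays and 7.47 in untreated cells. The groups did not overlap, and the 20 µM values lay close to the untreated one. The difference was −0.56 (SE 0.16, limma adjusted p = 0.985), and it was −0.36 without the 2 h pair. A second probe set gave −0.58. The 20 µM and untreated values of Trib3 were near the filter cut of 7.08.

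Several amino acid and stress genes behaved alike. Slc7a3, which encodes a carrier of cationic amino acids, was at 7.72, 7.65 and 7.08 with 20 µM and at 8.80, 7.78 and 7.74 with 1 µM, without overlap and with a difference of −0.62 (SE 0.19). Nupr1, a small stress-induced chromatin protein gene, was at 7.36, 7.56 and 7.13 with 20 µM and at 9.0, 7.88 and 7.40 with 1 µM. The groups overlapped, and its difference of −0.74 (SE 0.26) was −0.29 without the 2 h pair. The 20 µM values of Slc7a3 and Nupr1 lay low on the arrays, near the filter cut of 7.08. In the fit with a scan day term Nupr1 was at −1.44 and passed (limma adjusted p = 0.00357, the only alternative of 24 that passed, with a range up to 0.9995). The 1 µM level of that fit rests on the 2 h array alone, the highest 1 µM array for Nupr1. Atf4 itself was at 11.28, 11.13 and 10.97 with 20 µM and at 11.80, 11.34 and 11.33 with 1 µM. These groups did not overlap, and the difference was −0.37 (SE 0.13), but its weaker probe sets gave only −0.07 to −0.02.

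Ddit3, the gene of the death-associated factor Chop, was at 8.54, 8.68 and 8.40 with 20 µM and at 9.58, 8.52 and 8.63 with 1 µM amylin. Only the 1 µM, 2 h array stood out, and the difference of −0.37 (SE 0.22) was −0.03 without the 2 h pair. Chac1, a glutathione-degrading enzyme gene, was at −0.98, 0.05 and −0.71 at 2, 12 and 24 h. Eif4ebp1, which encodes a repressor of cap-dependent translation, was at −0.97, 0.06 and −0.72, and Xpot, a tRNA exporter gene, at −0.99, 0.09 and −0.55. Without the 2 h pair the mean differences were −0.33 for Chac1, −0.33 for Eif4ebp1 and −0.23 for Xpot, against −0.55, −0.54 and −0.48 with it. Gadd45a, a growth arrest gene, went the other way: it was at 8.81, 8.82 and 9.17 with 20 µM and at 8.46, 7.92 and 8.80 with 1 µM, a difference of 0.54 between groups that just did not overlap.

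Short promoter stretches are shown for 3 of these genes that hold the core of the amino acid response element, TGATGNAA, to which Atf4 complexes bind. These 3 had the lowest differences among the holders named below, so the display shows no link between the core and lower signal. The sequences are 60 bases from RefSeq (GRCm38.p6) on the gene's strand, with the match on the opposite strand in capitals. Trib3 lies at chr2:152344013-152344072 (minus strand), Chac1 at chr2:119351023-119351082 (plus strand) and Nupr1 at chr7:126625547-126625606 (minus strand).
Trib3: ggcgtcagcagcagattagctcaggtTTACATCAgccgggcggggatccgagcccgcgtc
Chac1: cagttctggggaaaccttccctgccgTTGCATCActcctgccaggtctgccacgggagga
Nupr1: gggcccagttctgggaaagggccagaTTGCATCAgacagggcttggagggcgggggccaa
The core was found on either strand in 3.97% of the 32841 promoters and in 2.06% of the 4801 promoters of tested genes. Among integrated stress response genes, 4 of 17 with a promoter held it (Trib3, Chac1, Nupr1 and Herpud1), and among serine, asparagine and one-carbon genes 2 of 10 (Asns and Pck2). The differences of Herpud1, Asns and Pck2 were −0.04, −0.09 and −0.22. In Chac1 the match began 193 and in Nupr1 110 bases before the start, and the match in Trib3 lies after it.

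Synthesis of serine, asparagine and one-carbon units, whose genes are known targets of Atf4, showed the same shape over time. Of 11 tested genes, 0 passed. The mean difference was negative for 10, and 9 were lower at both 2 and 24 h, against 3447 and 2331 of all 7436 genes. The median was −0.22, from −0.34 at 2 h, 0.24 at 12 h and −0.35 at 24 h, and it was −0.08 without the 2 h pair and −0.45 without the 12 h pair. The median deviation of the members was 0.40 in the 1 µM, 2 h array and between −0.31 and 0.07 in the other arrays at 22.7 mM. Mthfd2, a mitochondrial folate enzyme gene, was at 10.21, 10.15 and 9.99 with 20 µM and at 10.76, 10.38 and 10.32 with 1 µM, without overlap and with a difference of −0.37 (SE 0.14). The serine enzyme genes Shmt2, Psph and Phgdh were at −0.36, −0.33 and −0.28, and the asparagine synthetase gene Asns at −0.09. The aminoacyl-tRNA synthetases (19 tested) had a median of −0.04.

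Genes of the insulin granule were higher at 20 µM, by small amounts. The list of granule cargo, processing and glucose sensing had 20 tested members, of which 0 passed. The mean difference was positive for 18, against 53.6% of all tested genes. At all 3 times 10 were higher and 0 lower, against 12.1% and 12.2% of all tested genes. The median was 0.21, from 0.10 at 2 h, 0.32 at 12 h and 0.18 at 24 h, and it was 0.15 without the 12 h pair and 0.29 without the 2 h pair. In the fit with a scan day term, whose 1 µM level rests on the 2 h array alone, it was −0.02. Within scan day 4, the median of 20 minus 10 µM was −0.06 at 12 h and −0.03 at 24 h. The median deviation of the members was 0.03, 0.04 and 0.10 in the 20 µM arrays and −0.05, −0.31 and −0.08 in the 1 µM arrays, and 0.06 in the untreated array. The 1 µM arrays thus lay below both the 20 µM and the untreated arrays.

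Scg2, the gene of the granin secretogranin II, was at 13.13, 13.05 and 13.12 with 20 µM and at 13.01, 12.65 and 12.64 with 1 µM amylin. The groups did not overlap, and the difference was 0.33 (SE 0.11). It lay between 0.05, in the fit with a scan day term, and 0.47 over 25 alternatives, of which 0 passed. Scg5, which encodes the chaperone of the prohormone convertase Pcsk2, was at 11.78, 11.67 and 11.88 with 20 µM and at 11.60, 11.21 and 11.49 with 1 µM, without overlap, a difference of 0.34 (SE 0.12). Slc2a2, the gene of the glucose transporter Glut2, was at 10.44, 10.95 and 10.86 with 20 µM and at 10.06, 10.31 and 10.65 with 1 µM. These groups overlapped, and the difference was 0.41 (SE 0.14). Carboxypeptidase E (Cpe), which trims prohormones, was at 0.35 and the granuphilin gene Sytl4 at 0.33. Each had a limma adjusted p of 0.985.

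The hormones themselves differed less. Ins2 was at 14.67, 14.61 and 14.64 with 20 µM and at 14.50, 14.65 and 14.54 with 1 µM amylin, a difference of 0.07 (SE 0.07) between overlapping groups. Iapp, the cells' own mouse amylin gene, was at 13.78, 13.77 and 13.83 with 20 µM and at 13.78, 13.62 and 13.44 with 1 µM, a difference of 0.18 (SE 0.10). The difference for both was small beside their height on the array. The transcription factors of beta cell identity (13 tested) had a median of 0.10, from −0.04 at 2 h, 0.38 at 12 h and −0.02 at 24 h, and it turned to −0.03 without the 12 h pair. Pdx1 was at 0.08. Nkx6-1, another of them, was at −0.14, 1.65 and −0.25 at 2, 12 and 24 h, so its mean of 0.42 came from the 12 h pair.

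**Figure D4:**
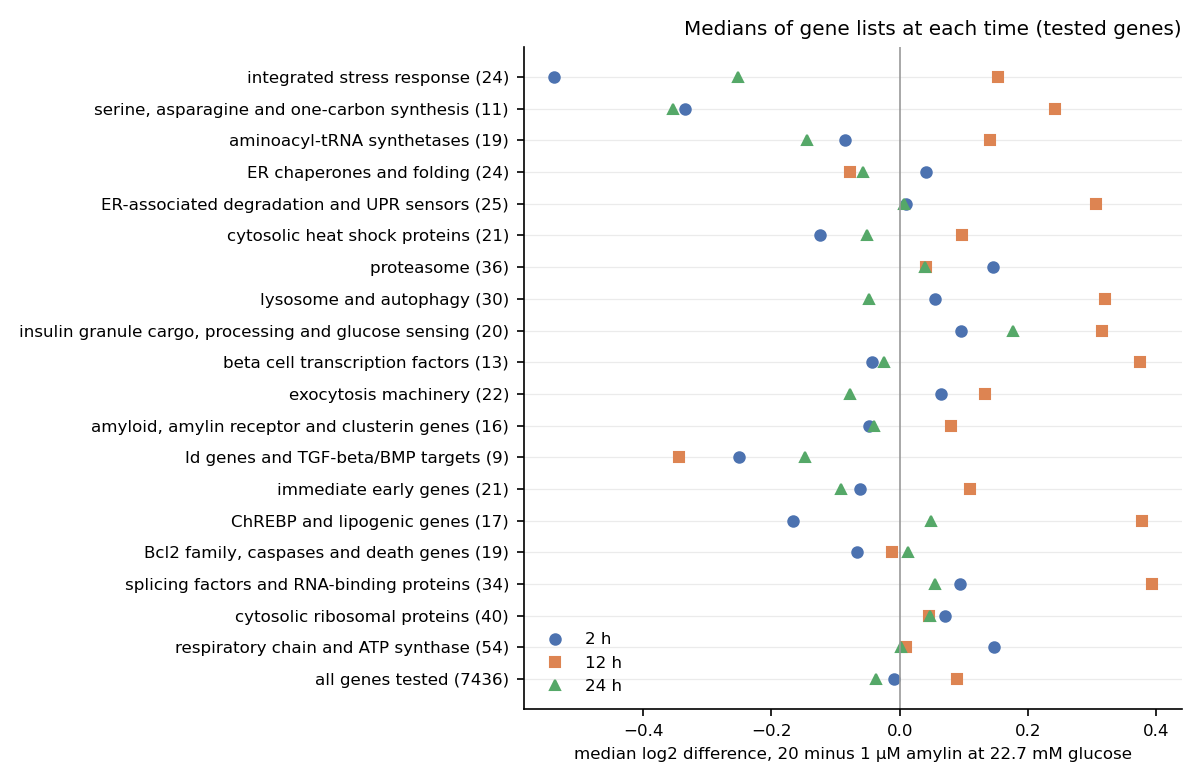
Median log2 difference 20 minus 1 µM amylin at 22.7 mM glucose of the tested members of 19 gene lists and of all tested genes (last row), at 2, 12 and 24 h, with the number of genes in brackets. The integrated stress response lies at −0.54 and −0.25 at 2 and 24 h, and most of the 12 h symbols lie to the right of those for the other times.

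Txnip, which encodes a thioredoxin-binding protein induced by glucose through the factor ChREBP, was higher at 20 µM. It was at 8.80, 8.83 and 8.59 with 20 µM, against 7.34, 8.20 and 8.42 with 1 µM and 8.94 in untreated cells. The groups did not overlap, but the 1 µM arrays differed by more than 1 among themselves and the 2 h array was lowest. The difference was 0.76 (SE 0.23, limma adjusted p = 0.985), with 1.47 at 2 h, and 0.40 without the 2 h pair. A second probe set gave 0.66. In the fit with a scan day term it was 1.37 (limma adjusted p = 0.0105, the only alternative of 25 that passed, with a range up to 0.998). Without the 1 µM arrays of 2 and 12 h it was 0.08. The 1 µM level rests on the 2 h array alone in the former fit and on the 24 h array alone in the latter. The ChREBP and lipogenic list (17 tested) had a median of 0.06, which turned to −0.03 without the 12 h pair, and the lipid enzyme genes Elovl6 and Acsl5 were at −0.33 each.

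**Figure D5:**
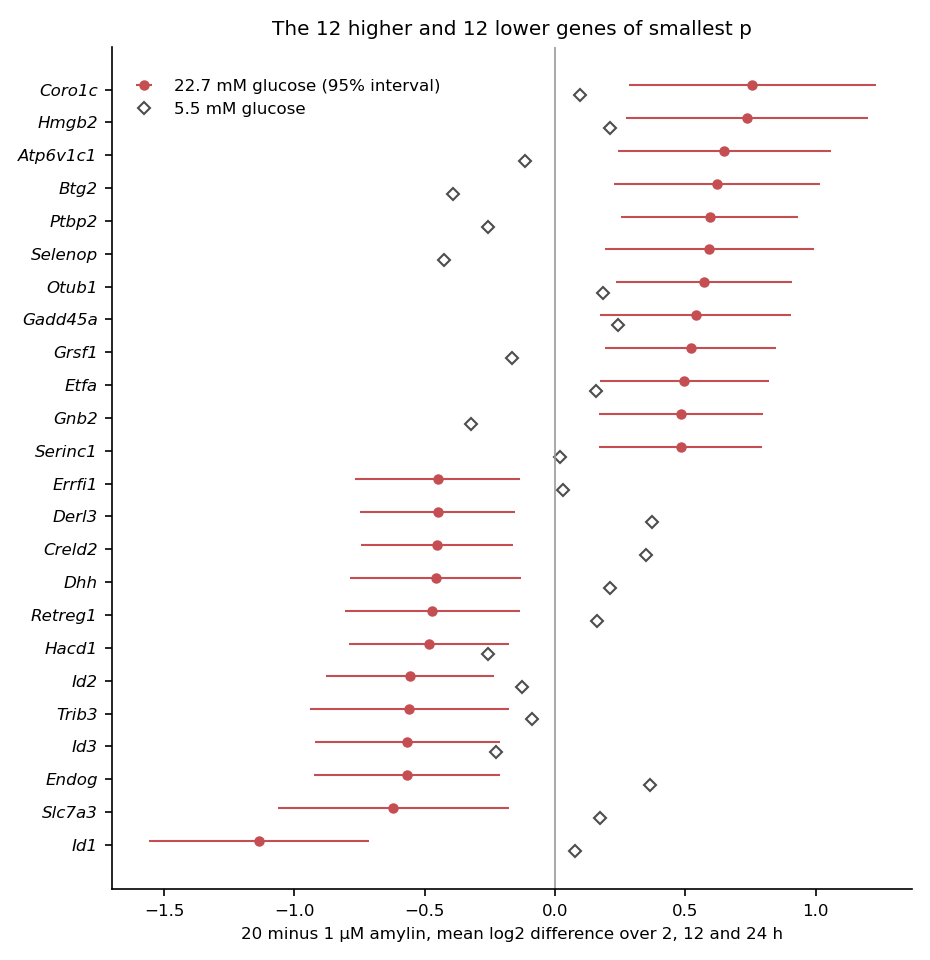
Mean log2 difference 20 minus 1 µM amylin over 2, 12 and 24 h for the 12 higher and the 12 lower genes of smallest p at 22.7 mM glucose (filled circles, 95% interval), with the same difference at 5.5 mM glucose (open diamonds). Id1 is at −1.14 at 22.7 mM and 0.08 at 5.5 mM glucose, and none of the 24 genes passed the test.

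Among the other genes lower at all 3 times with the smallest p were several enzymes and regulators. Endog, a mitochondrial nuclease gene, was at 7.49, 7.30 and 7.29 with 20 µM and at 8.25, 7.99 and 7.55 with 1 µM, a difference of −0.57 (SE 0.15) without overlap. Its second probe set gave −0.01, and its 20 µM values were near the filter cut of 7.08. Hacd1, a dehydratase gene of fatty acid elongation, was at 8.18, 8.18 and 8.13 with 20 µM and at 8.52, 8.71 and 8.71 with 1 µM. Its groups did not overlap, and the difference was −0.48 (SE 0.13). Retreg1, an ER-phagy receptor gene, was at −0.47, the hedgehog ligand gene Dhh at −0.46 and Errfi1, an inhibitor gene of the epidermal growth factor receptor, at −0.45. Among the 12 lower genes of smallest p, Id1 included, the 1 µM, 2 h array was the highest of the 6 for 8, against 11.3% of all tested genes. The 20 µM, 24 h array was the lowest for 10, against 13.6%. These genes were picked as lower at all 3 times, so only a 1 µM array could be highest and only a 20 µM array lowest. The shares over all tested genes have no such limit and are not a like background.

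Among genes higher at all 3 times, Ptbp2, a splicing regulator gene of neurons, was at 7.69, 7.64 and 7.79 with 20 µM and at 7.20, 6.83 and 7.32 with 1 µM amylin. The groups did not overlap, and the difference was 0.59 (SE 0.15), while a second probe set gave −0.23. The 1 µM values of Ptbp2 lay around the filter cut of 7.08. Hmgb2, a chromatin protein gene, was at 10.43, 10.27 and 10.47 with 20 µM and at 10.25, 9.09 and 9.61 with 1 µM, without overlap, a difference of 0.74 (SE 0.20). Btg2, an antiproliferative gene, was at 9.60, 9.92 and 9.88 with 20 µM and at 9.38, 9.01 and 9.15 with 1 µM, without overlap, a difference of 0.62 (SE 0.17). In the fit with a scan day term Hmgb2 was at 0.04 and Btg2 at −0.07, so neither held its size there. That fit is a different contrast, with its 1 µM level from the 2 h array alone.

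Otub1, a deubiquitinase gene, was at 8.58, 8.59 and 8.58 with 20 µM and at 8.02, 7.78 and 8.26 with 1 µM, but its second probe set had the opposite sign (−0.26). Coro1c, a coronin gene of the actin cytoskeleton, was at 0.76, the proton pump subunit gene Atp6v1c1 at 0.65, the selenoprotein P gene Selenop at 0.59, the mitochondrial RNA-binding gene Grsf1 at 0.52 and the electron transfer flavoprotein gene Etfa at 0.50. The G protein subunit gene Gnb2 and the serine incorporator gene Serinc1 were at 0.48. In all 12 higher genes of smallest p, Gadd45a included, the 1 µM, 12 h array was the lowest of the 6, as it was for 34.7% of all tested genes. The 20 µM, 24 h array was the highest for 10 of the 12, against 12.4% of all tested genes. All 12 were picked as higher at 20 µM at every time. Only a 20 µM array could thus be highest, and only a 1 µM array lowest. Both shares over all tested genes lack this limit and are not a like background.

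Much of the rest of the higher side lay at 12 h. The splicing and RNA-binding list (34 tested) had a median of 0.18, with 0.39 at 12 h, 0.09 at 2 h and 0.06 at 24 h. In it 0 genes passed, 31 had a positive mean difference and 10 were higher at all 3 times. The shares over all tested genes were 53.6% and 12.1%. Hnrnpl, an mRNA-binding protein gene, was at 0.70, 1.22 and 0.01 at 2, 12 and 24 h. The immediate early genes (21 tested) had a median of −0.04. Among them Egr1, a growth-induced zinc finger gene, was at 11.30, 11.05 and 10.17 with 20 µM and at 11.46, 8.90 and 9.68 with 1 µM. Its groups overlapped, and the difference of 0.83 (SE 0.37) was 0.17 without the 12 h pair. Jun was at 0.74, with 2.03 at 12 h. The orphan receptor gene Nr4a2 and the phosphatase gene Dusp6, which acts on ERK, were at −0.44 each.

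At single times there is 1 array a group and no test. At 12 h, among genes whose sign was the same at the other times, the highest were Hnrnph2 (1.53), Ncl (1.52), Nnat (1.46), Snrpd3 (1.44) and Th (1.35). They encode an mRNA-binding protein, nucleolin, a small membrane protein of neuroendocrine cells, a spliceosome core protein and tyrosine hydroxylase. The lowest at 12 h included the cAMP-responsive modulator gene Crem (−1.48), the hedgehog receptor gene Smo (−1.41) and the chemokine gene Cxcl12 (−1.11). At 24 h the lowest were Id1 (−1.32), Id3 (−0.90), Comtd1 (−0.75), Slc7a3 (−0.65) and the DNA repair gene Ogg1 (−0.64). The highest at 24 h included the homeobox gene Pbx3 (0.94), the kinesin gene Kif5b (0.92) and Hmgb2 (0.86). At 2 h the lowest were Nupr1 (−1.64), Angptl6 (−1.57), Slc7a3 (−1.08), Trib3 (−0.95) and Sod1 (−0.94). Angptl6 is a secreted angiopoietin-like protein gene and Sod1 the gene of the cytosolic superoxide dismutase. The ornithine decarboxylase gene Odc1 (0.61) was among the 5 highest there.

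Genes tied to amyloid and to amylin's receptors showed no common direction. The list (16 tested) had a median of 0.05, which turned to −0.09 without the 12 h pair, and 0 of its genes passed. Bace2, a protease gene of beta cells, was at 0.40, Ide, the gene of the insulin- and amylin-degrading enzyme, at 0.19 and Clu, the gene of the secreted chaperone clusterin, at 0.12. Ramp2, which encodes a partner of the calcitonin receptor family, was at −0.36, and Ramp3 was at −0.14. The calcitonin receptor gene Calcr was not among the 16 tested genes. The Bcl2 family, caspase and death list (19 tested) had a median of −0.05. In it 2 genes were higher and 5 lower at all 3 times (10.5% and 26.3%, against 12.1% and 12.2% of all tested genes). The proteasome list (36 tested) and the respiratory chain list (54 tested) had medians of 0.06 and 0.05.

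The same doses at 5.5 mM glucose gave other values. There 0 of 7436 genes (percent called 0) passed with limma, 431 (5.8%) had an unadjusted p under 0.05, with 158 (2.12%) higher and 273 (3.67%) lower at 20 µM, and the smallest adjusted p was 0.607. Of the 232 genes under that p at 22.7 mM, 81 had the same sign at 5.5 mM (34.9%), against 3242 of all 7436 (43.6%). Across genes the mean differences at the 2 glucose levels correlated at −0.18, and at −0.01 from the 2 and 24 h arrays alone. The test of the difference between glucose levels called 0 genes (percent called 0), with 397 (5.34%) at an unadjusted p under 0.05 and a smallest adjusted p of 0.853. For 265 of these (3.56%) the difference was higher at 22.7 mM, and for 132 (1.78%) it was lower. No gene is therefore shown to respond differently at the 2 levels.

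At 5.5 mM glucose Id1 was at 9.81, 8.98 and 9.19 with 20 µM and at 9.41, 8.84 and 9.50 with 1 µM amylin, a difference of 0.08 between overlapping groups. Its difference between the glucose levels was −1.21 (limma adjusted p = 0.853). Creld2 was at 11.31, 11.43 and 11.21 with 20 µM and at 10.45, 11.42 and 11.03 with 1 µM, and its difference of 0.35 came mostly from 2 h. Derl3 was at 0.37, and the ER chaperone list had a median of 0.19, with 21 of 24 genes positive, against 3577 of all 7436. By time, the median of the ER chaperone list was 0.37 at 2 h, 0.02 at 12 h and 0.12 at 24 h. Txnip was at 7.31, 7.59 and 7.69 with 20 µM and at 8.76, 7.32 and 7.65 with 1 µM, a difference of −0.38. The array that stood apart for Txnip was the 1 µM, 2 h array at both glucose levels, low at 22.7 mM and high at 5.5 mM. The granule list had a median of 0.10, with 14 of 20 genes positive, and the integrated stress response list a median of 0.01. By time the latter was 0.26 at 2 h, 0.21 at 12 h and −0.33 at 24 h. The serine, asparagine and one-carbon list had a median of −0.04, from 0.31, 0.13 and −0.54 at these times. Both lists were thus lower at 24 h at both glucose levels, and lower at 2 h only at 22.7 mM.

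The middle dose shares the 1 µM arrays, so its values are set beside the others without a comparison. For 10 minus 1 µM at 22.7 mM glucose, 0 of 7436 genes (percent called 0) passed with limma, with 490 (6.59%) at an unadjusted p under 0.05 and a smallest adjusted p of 0.575. Of these 490, 400 (5.38%) were higher and 90 (1.21%) lower at 10 µM. Without the 12 h pair, Txnip passed as higher by 0.98, and Nupr1 as lower at −0.84. That fit had 1 residual degree of freedom. Its 2 h pair holds the 1 µM array in which Txnip was lowest and Nupr1 highest among the 1 µM arrays. Txnip was at 9.02, 9.37 and 8.69 in the 10 µM arrays, and Nupr1 at 7.58, 7.58 and 7.14. Scg2 was at 13.02, 13.05 and 13.04 there. For Txnip and Scg2 every 10 µM array lay above every 1 µM array, while for Nupr1 they overlapped.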

How the data were processed

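RNA of MIN6 cells was measured on 20 Affymetrix mouse arrays with 22690 probe sets. The deposited table holds log2 signals that the authors made with RMA in affy 1.12.2 under R 2.4.0, per the submitters' processing notes. Whether RMA was run on all of them together is not given in the sources used here. Scanner descriptions deposited for 18 arrays gave the scan day (4 days) and the chip lot (1 lot) and nothing else.

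Of the probe sets, 64 controls were left out, and the 20380 listed with 1 gene gave 12393 genes. Those with several genes (691) or none (1555) were not used. For a gene with several probe sets, the one with the highest mean signal across the series was taken. A filter removed the 40% of genes with the lowest mean signal (below 7.08) and left 7436, and Ins1 was not analysed here. Dose differences were estimated with limma 3.58.1 in R 4.3.3 (lmFit with time as a factor, eBayes with trend), with Benjamini-Hochberg adjustment over the 7436 genes at 0.05. The 20 minus 1 µM fits had 2 residual degrees of freedom and 3 matched times. With arrays there is no read depth, and the number of arrays sets the precision. The fit was tested on simulated data with independent noise for each gene. Those data held no outlying array and no scan day effect, so that test does not bear on either.

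Genes were named by a rule: the 12 higher and the 12 lower genes of smallest p with the same sign at all 3 times, since fewer than 6 passed in each direction. To these were added the 5 of smallest p in each direction at 5.5 mM and for the difference between glucose levels, up to 4 members of each of 40 gene lists, a set of beta cell and stress genes, and the 5 highest and 5 lowest at each single time with the same sign at the others. Members of a list named beyond these were chosen after their values were seen. Clone-type symbols (102 of the tested genes) were not named. The comparison and the lists were chosen with earlier results of these data known. Promoters came from RefSeq (GRCm38.p6). Alternatives were other filters, scalings, probe set rules, variance models and sets of arrays, a slope on log2 dose, and scan day as a term.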

Additional observations from a re-analysis of the deposited data

Results flagged for a closer look

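The 20 minus 1 µM difference had one sign at all 3 times at 22.7 mM glucose and the opposite sign at all 3 times at 5.5 mM for 270 of the tested genes (3.63%). Only the 32 genes named for their small p at 22.7 mM or in the difference between glucose levels were looked at singly, and 10 of them had this pattern. None of the 10 differences between glucose levels passed the test (limma adjusted p = 0.853 for each). The signs and the p-values were part of what picked these genes out, so they are descriptions. Among them, 4 were higher at 20 µM at 22.7 mM and lower at 5.5 mM. The tight junction gene Tjp1 was at 0.30 at 22.7 mM and −0.53 at 5.5 mM, a difference between glucose levels of 0.83. Supt20, a transcription coactivator gene, was at 0.47 at 22.7 mM and −0.40 at 5.5 mM, a difference of 0.86. Cops3, of the COP9 signalosome, was at 0.46 at 22.7 mM and −0.25 at 5.5 mM, a difference of 0.70. Vps26c, of endosomal retrieval, was at 0.10 at 22.7 mM and −0.50 at 5.5 mM, a difference of 0.60, most of it from the 5.5 mM arrays.

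The other 6 were lower at 20 µM at 22.7 mM and higher at 5.5 mM. Sod1 was at 11.32, 11.34 and 11.25 with 20 µM and at 12.26, 11.36 and 11.58 with 1 µM amylin at 22.7 mM, a mean difference of −0.43, without overlap. At 5.5 mM it was at 11.24, 11.26 and 12.57 with 20 µM and at 11.04, 10.53 and 11.45 with 1 µM, a mean difference of 0.69, and the difference between glucose levels was −1.12. Endog was at −0.57 at 22.7 mM and 0.36 at 5.5 mM, a difference of −0.93. Yipf2, of Golgi membranes, was at −0.30 at 22.7 mM and 0.55 at 5.5 mM, a difference of −0.85. Creld2 was at −0.45 at 22.7 mM and 0.35 at 5.5 mM, a difference of −0.80, and the RNA polymerase III factor gene Gtf3c6 was at −0.29 at 22.7 mM and 0.47 at 5.5 mM, a difference of −0.77. The scaffold gene Mpp6 was at −0.27 at 22.7 mM and 0.44 at 5.5 mM, a difference of −0.72.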

How the results depend on the processing

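Under 25 other settings, the count of genes passing between 20 and 1 µM at 22.7 mM glucose was 0, except under 2 fits over more arrays. Without the 1 µM arrays of 2 and 12 h, 16 genes passed with limma, 11 higher (among them Phip 1.79, Kif5b 1.21 and Purb 1.17) and 5 lower (Id1, Dusp6, Gsdma, Rtn1 and Sncb). With scan day as a term 6 passed, Ldha (1.55) and Txnip (1.37) higher and Nupr1 (−1.44), Phip (−1.33), Phf10 (−1.24) and Angptl6 (−1.20) lower. Phip had opposite signs in these fits, which take their 1 µM level from different arrays. It comes from the 24 h array in the fit without the 1 µM arrays of 2 and 12 h. In the fit with scan day it comes from the 2 h array. In the matched comparison Phip was at −0.72 at 2 h and 1.56 at 24 h, and why these arrays differ was not tested. The fit with scan day is a different contrast of arrays from the matched comparison. Its sign was opposite for 37.2% of all tested genes and for 55 of the 208 named genes. Among the 24 higher and lower genes of smallest p it was opposite for Btg2 (−0.066) and Serinc1 (−0.21). Ldha, at −0.28 in the matched comparison, and Phip, at 0.84, were also of opposite sign there. Leaving out each matched time in turn gave 0 genes at 22.7 mM and 0 for the difference between glucose levels, 0 to 4 at 5.5 mM (4 without the 2 h pair, Egr1, Gnb1, Kdelr2 and Sod1, and 1 without the 24 h pair, Atf5) and 0 to 14 for 10 minus 1 µM (14 without the 2 h pair and 5 without the 12 h pair). Leaving out each of the 9 treated arrays from the fit on dose and time also gave 0. Genes at an unadjusted p under 0.05 numbered 464 without the 12 h pair, 352 without the 2 h pair and 354 without a filter, against 232. They split into 207 higher and 76 lower with arrays centred on their medians and into 166 higher and 188 lower without a filter, against 141 and 91. At 12 h, genes over 1 numbered 123 with centred and 125 with quantile normalized arrays, and those under −1 numbered 50 and 42. At 2 h, genes over 1 numbered 3 and 2 under these scalings. For those 24 genes alone, 591 differences under alternatives kept sign and side of the threshold, 2 reversed and 1 (Id1) newly passed. Of the other named genes, Txnip and Nupr1 newly passed in the fit with scan day. Of the list medians, 907 moved by less than their spread over times and 51 by more, and no value was left for lists without members under a filter on the lowest 60%. Arrays were paired by time throughout, and without the time term 0 genes passed. The labels give no replicate numbers, so no block on them was fitted.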

Other observations

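Of 36 tested mitosis genes none passed at 22.7 mM glucose, while 30 had a positive mean difference at 20 µM, against 53.6% of all tested genes. In that list 9 genes were higher and 2 lower at all 3 times, against 12.1% and 12.2% of all tested genes, and the median was 0.11. Kif20a, a kinesin gene of cytokinesis, was at 7.88, 7.88 and 8.14 with 20 µM and at 7.55, 7.68 and 7.86 with 1 µM amylin, a difference of 0.27 (SE 0.13) without overlap. Of 35 DNA replication genes none passed and 27 were positive, and their median of 0.10 turned to −0.02 without the 12 h pair. The replicative helicase gene Mcm3 was at 0.15, 0.94 and 0.24 at 2, 12 and 24 h. Among 32 translation factors, with a median of 0.08, the helicase genes Eif4a1 and Eif4a2 were at 0.30 and 0.34, both without overlap of the groups. In the fit with a scan day term, whose 1 µM level rests on the 2 h array alone, these were −0.22 and −0.37.

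Metabolic and protective genes had differences of either sign, and none passed. Pcx, the gene of pyruvate carboxylase, was at 9.57, 9.72 and 9.67 with 20 µM and at 9.37, 8.42 and 9.47 with 1 µM, a difference of 0.57 (SE 0.23) that was 0.20 without the 12 h pair. Fth1, the ferritin heavy chain gene, was at 0.36 (SE 0.13). The inducible heat shock gene Hspa1b was at 7.39, 7.62 and 7.58 with 20 µM and at 7.89, 7.79 and 7.63 with 1 µM, a difference of −0.24 (SE 0.15). The metallothionein genes Mt1 and Mt2 were at 0.12 and 0.16, with overlapping groups.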
